A study of Mus musculus with 12 samples.

Results

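Transcript levels of 5 transcription factor loci were followed in peritoneal macrophages that have or lack N4bp1, a cytosolic protein that restrains NF-κB signaling. The loci were chosen by name from the 124 NF-κB-dependent genes that the authors tabulated: *Spi1*, *Tfec*, *Cebpd*, *Sox9* and a joined locus that holds *Hif1a*, *Snapc1* and AC124712.1. All 5 were found in each of the 3 deposited tables. N4bp1+/+ mice were compared with N4bp1-/- mice, which carry a short CRISPR-Cas9 deletion in an early exon of *N4bp1*, both on the C57BL/6J background. The study used young adult mice of both sexes, and no source used here gives the age or sex of the donors of these libraries. The macrophages had been drawn into the peritoneal cavity with thioglycollate, an irritant, so recruited cells make up much of such preparations. Cells received no stimulus, R848 at 20 ng/ml, which activates TLR7, or LPS at 10 ng/ml, which activates TLR4, for 2 h. Each of the 6 groups holds cells of 2 mice, and the experiment was performed once.

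The values are FPKM, fragments counted per length of transcript and per mapped fragment of the library. The authors deposited 1 value per group, taken here as a mean over both mice. The spread between mice and the depth of the libraries are therefore unknown here, no test between genotypes or treatments was possible, and every ratio below is a description of 2 means. A ratio is called past the fold when it exceeds 1.5-fold in either direction. The 3 treatments are in separate tables, and no source used here says whether they were scaled together, which limits every level set across treatments. Labels of the unstimulated libraries begin with another letter than those of the stimulated ones, so a batch and the stimulus cannot be told apart. *N4bp1* is not on the list, and its transcript was not analysed here. In bulk RNA, more cells of a type and more RNA per cell cannot be told apart.

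A lineage-determining transcription factor opens the enhancers of a cell type, and stimulus-dependent factors then act on those enhancers. PU.1, the product of *Spi1*, has the first role in macrophages and other myeloid cells. TFEC is a basic helix-loop-helix leucine zipper protein of the MiT family that is largely restricted to macrophages within that family. C/EBPδ, the product of *Cebpd*, is a basic leucine zipper protein known from the acute phase response, where Toll-like receptor signals raise its transcript. HIF-1α is the oxygen-regulated subunit of HIF-1 and is also known to be raised by NF-κB in activated macrophages. SOX9 is an HMG-box factor known from cartilage, hair follicle and epithelial progenitors and is not a macrophage lineage factor, so among lineage factors it belongs to other tissues.

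Promoters of *Tfec*, *Hif1a* and *Snapc1* are shown because *Tfec* was the one locus that was lower past the fold in N4bp1-/- cells after both stimuli, and because the joined locus contains 2 separate promoters whose transcripts its single value cannot separate. They are RefSeq sequences of GRCm38.p6, the assembly also called mm10, from 250 bases before to 50 bases after the annotated start, and 3 of the 6 gene symbols searched (*Spi1*, *Tfec*, *Cebpd*, *Sox9*, *Hif1a*, *Snapc1*) matched. Capitals mark matches on either strand to the C/EBP motif TTNNGNAAT, to the E-box CACGTG or to the core ACGTG of HIF-binding sites, which lies within that E-box. The other motifs searched, the NF-κB consensus, the PU.1 motif GAGGAAGT and the SOX motif ACAAAG, had no match in these 3 windows. The windows are chr6:16898392-16898691 (minus strand) for *Tfec*, chr12:73907617-73907916 (plus strand) for *Hif1a* and chr12:73964247-73964546 (plus strand) for *Snapc1*.
Tfec: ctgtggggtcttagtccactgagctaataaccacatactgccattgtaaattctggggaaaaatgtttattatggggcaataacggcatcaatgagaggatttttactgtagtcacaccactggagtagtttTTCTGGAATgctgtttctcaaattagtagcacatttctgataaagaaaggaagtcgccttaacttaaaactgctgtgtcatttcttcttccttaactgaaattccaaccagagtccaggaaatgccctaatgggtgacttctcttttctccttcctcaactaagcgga
Hif1a: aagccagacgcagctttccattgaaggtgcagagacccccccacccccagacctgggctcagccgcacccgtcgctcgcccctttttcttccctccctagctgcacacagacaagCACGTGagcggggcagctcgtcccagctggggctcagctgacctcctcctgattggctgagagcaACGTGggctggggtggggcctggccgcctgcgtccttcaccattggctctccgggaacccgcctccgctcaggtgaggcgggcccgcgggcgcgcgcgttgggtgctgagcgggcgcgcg
Snapc1: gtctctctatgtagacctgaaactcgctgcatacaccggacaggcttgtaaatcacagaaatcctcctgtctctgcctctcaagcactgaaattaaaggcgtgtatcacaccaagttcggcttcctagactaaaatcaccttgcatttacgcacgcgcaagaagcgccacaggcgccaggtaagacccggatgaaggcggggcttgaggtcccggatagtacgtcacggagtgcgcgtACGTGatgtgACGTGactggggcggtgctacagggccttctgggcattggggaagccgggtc
The *Tfec* window holds 1 match to the C/EBP motif, at chr6:16898551-16898559. The *Hif1a* window holds the E-box at chr12:73907732-73907737 and a second ACGTG at chr12:73907797-73907801, and the *Snapc1* window holds ACGTG at chr12:73964485-73964489 and across its start at chr12:73964495-73964499. Among 32851 promoter windows of the same length, 11.5% held the C/EBP motif, 7.15% the E-box, 19.6% ACGTG, 4.51% the NF-κB consensus, 3.20% the PU.1 motif and 18.7% the SOX motif. For the 86 listed genes that had such a window, the shares were 17.4%, 10.5%, 22.1%, 27.9%, 6.98% and 18.6% in the same order. These were counted per gene, with a match in any of its windows, whereas the former were counted per window. A gene with several windows can match more easily, so the 2 sets of shares are not like for like. G and C made up 40.3% of the *Tfec* window, 69.3% of the *Hif1a* window and 55.3% of the *Snapc1* window.

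Between the genotypes the 5 loci divided in the same way under every treatment. *Sox9*, *Cebpd* and the *Hif1a* locus had the higher mean FPKM in N4bp1-/- cells in each of the 3 treatments, whereas *Tfec* and *Spi1* had the lower one. *Sox9* differed most, at 6.08-fold to 14.8-fold higher, and *Spi1* least, at 1.08-fold to 1.16-fold lower. Of the 123 listed genes with a ratio under all 3 treatments, 46 were above 1 throughout, 16 were below 1 throughout and 61 had mixed directions.
Past the fold, 2 of the 5 loci were higher in unstimulated N4bp1-/- cells, against 47.2% of the listed genes, and 0 were lower, against 3.25%. After R848, 1 was higher, against 33.9%, and 1 was lower, against 3.23%. After LPS, 2 were higher, against 21% of the listed genes, and 1 was lower, against 16.1%. The median log2 ratio of the 5 loci was 0.53 without stimulus, 0.48 after R848 and 0.32 after LPS, beside 0.53, 0.28 and −0.09 for all listed genes.

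**Figure D1:**
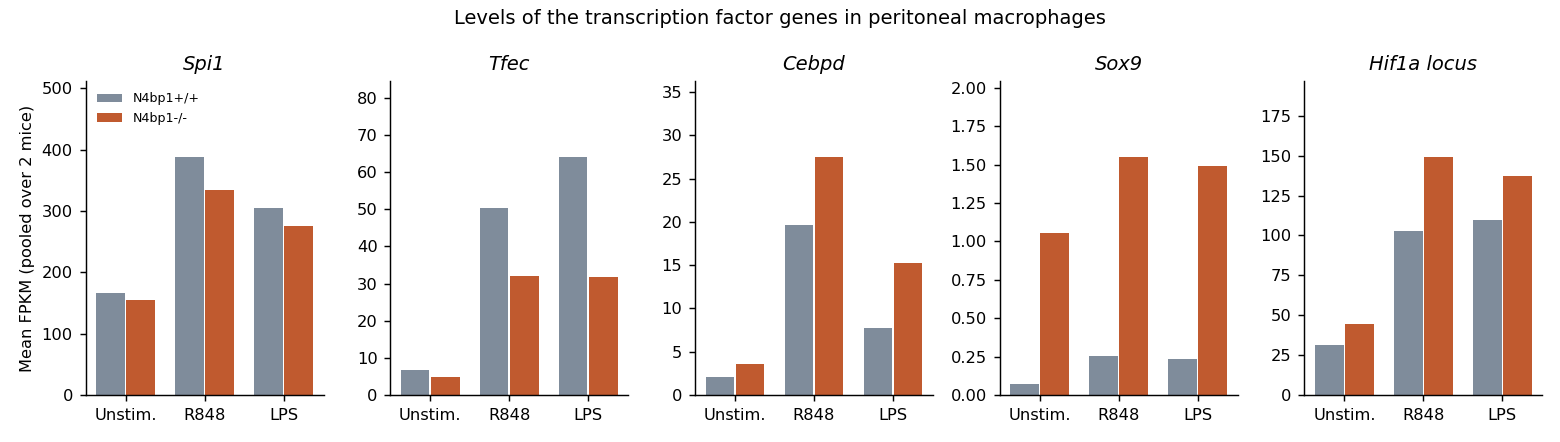
Bars give the authors' FPKM of each locus (linear axes from 0, a separate scale per locus) in N4bp1+/+ and N4bp1-/- macrophages, unstimulated or treated with R848 or LPS. Each bar is 1 value, taken as a mean over 2 mice, with no error available. *Tfec* stands at 50.2 against 32.1 FPKM after R848, whereas *Sox9* is above 1 FPKM only in the 3 N4bp1-/- groups.

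**Figure D2:**
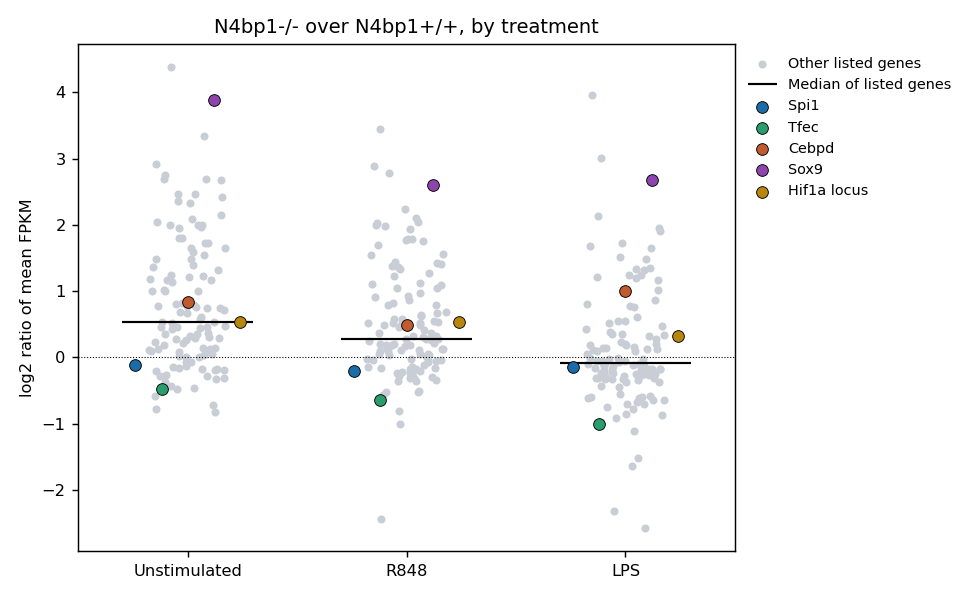
Points give the log2 ratio of mean FPKM, N4bp1-/- over N4bp1+/+, under each treatment, with the 5 loci in color, the other listed genes in grey and the median of all listed genes as a bar. *Sox9* lies near the top of the listed genes under each treatment (2.61 to 3.89) and *Tfec* near the bottom (−0.49 to −1.01).

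*Spi1* (chr2:91082077-91115756) was the most abundant of the 5 loci in every group. Its mean FPKM in N4bp1+/+ cells was 166.7 without stimulus, 387.7 after R848 and 304.2 after LPS. The N4bp1-/- means were 154.5, 334.6 and 275.9 FPKM. Without stimulus its level was number 2 of the 124 listed genes in N4bp1+/+ cells and number 3 in N4bp1-/- cells, counted from the highest. It ranked 15 and 21 after R848 and 34 in both genotypes after LPS.
The log2 ratio of N4bp1-/- to N4bp1+/+ for *Spi1* was −0.11 without stimulus, −0.21 after R848 and −0.14 after LPS, all within the fold. *Spi1* was also taken as a macrophage marker, although PU.1 acts in other myeloid cells too. Macrophage markers beyond the 4 genes named below were not analysed here. Of the 3 other macrophage-expressed genes taken as markers, only *Tlr2*, a receptor for bacterial lipoproteins, was past the fold, at 20.2 against 45.8 FPKM without stimulus (N4bp1+/+ first). The summed FPKM of all 4 such genes (*Spi1*, *Tlr2*, *Nod2*, *Abca1*) was 214.0 and 232.3 without stimulus, 863.4 and 835.1 after R848, and 925.9 and 892.3 after LPS, N4bp1+/+ first. Without *Spi1*, which makes up most of the unstimulated sum, these were 47.3 and 77.8, 475.8 and 500.4, and 621.6 and 616.4 FPKM. In both genotypes all 4 genes were higher past the fold after either stimulus than without it. The sums therefore do not measure macrophage content alone.

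*Tfec* (chr6:16828805-16898441, minus strand) stood at 6.84, 50.2 and 64.1 FPKM in N4bp1+/+ cells that were unstimulated, given R848 and given LPS. The corresponding N4bp1-/- means were 4.89, 32.1 and 31.9 FPKM. The N4bp1-/- value was the lower one each time, and the 2 stimulated N4bp1-/- values were nearly equal, while N4bp1+/+ cells had the higher value after LPS.
The ratio was 1.40-fold lower without stimulus, 1.56-fold lower after R848 and 2.01-fold lower after LPS (log2 ratios −0.49, −0.64 and −1.01). Counted from the lowest ratio, *Tfec* was number 6 of 123 listed genes without stimulus, 4 of 124 after R848 and 6 of 124 after LPS. The highest of its 3 log2 ratios, −0.49, was the lowest such value among the 123 genes. That of *Cd83* was close, at −0.46, and no spread is available to rank them. No listed gene was lower past the fold under all 3 treatments.
With every ratio taken relative to the median listed gene, *Tfec* was 2.02-fold lower without stimulus as well, and *Spi1* 1.55-fold lower. *Tfec* and *Spi1* are both expressed in the macrophage lineage. On the deposited scale the ratio of *Spi1* stayed within 1.16-fold. A part of cell composition in the *Tfec* result was not tested.

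*Cebpd* (row at chr16:15887240-16146851) stood at 2.02 FPKM in unstimulated, 19.7 in R848-treated and 7.68 in LPS-treated N4bp1+/+ cells. Means of 3.59, 27.5 and 15.3 FPKM were found in N4bp1-/- cells. It was higher in N4bp1-/- cells each time, and in both genotypes the R848 value was the highest.
The ratio was 1.78-fold without stimulus, 1.40-fold after R848 and 1.99-fold after LPS (log2 ratios 0.83, 0.48 and 0.99). The first and the last are past the fold; relative to the median listed gene, the unstimulated ratio was 1.23-fold and within it. The log2 ratio after R848 was 0.51 below that after LPS, number 7 of 124 counted from the lowest such difference, whereas the median listed gene had a log2 ratio 0.27 higher after R848. No error is available for this difference.
The row of *Cebpd* spans 259612 bases, number 5 of the 124 rows by width, beside a median of 19165. *Cebpd* itself is annotated at chr16:15887286-15891031 on the plus strand. The rest of the row is taken up by *Spidr*, a gene of homologous recombination repair on the minus strand at chr16:15889224-16146851, whose annotated exons share 562 bases with that of *Cebpd*. The library kit keeps the strand, but no source used here says whether the authors' counting used it. A part of *Spidr* reads in the *Cebpd* value was not tested.

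The *Hif1a* locus (chr12:73843039-73988966) stood at 31.0 FPKM in unstimulated, 103.0 in R848-treated and 109.7 in LPS-treated N4bp1+/+ cells. Without N4bp1 the means were 44.7, 149.1 and 137.4 FPKM. It was higher in N4bp1-/- cells each time, with log2 ratios of 0.53, 0.53 and 0.32, which are 1.44-fold, 1.45-fold and 1.25-fold.
All 3 ratios are within the fold. Without stimulus the ratio was number 61 of 123 counted from the highest, so it lay at the median of the listed genes. After R848 it was number 47 of 124, and after LPS number 36.
The value belongs to the row as a whole. GENCODE M21 places *Hif1a* at chr12:73901375-73947530 and *Snapc1*, which encodes a subunit of the complex that drives small nuclear RNA transcription, at chr12:73964481-73988966, both on the plus strand. It also places there the antisense RNA gene *Gm15283* and the coding model *Gm49321*, which share 330 and 148 exonic bases with *Hif1a*. How much of the value comes from *Hif1a* was not tested. The annotated *Hif1a* gene begins at base 73901375, upstream of the RefSeq start at base 73907867 that the printed promoter is built on.

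*Sox9* (chr11:112782224-112787760) was the least abundant of the 5 loci. Its mean FPKM in N4bp1+/+ cells was 0.0713 without stimulus, 0.255 after R848 and 0.234 after LPS. The N4bp1-/- means were 1.06, 1.55 and 1.49 FPKM. Every N4bp1-/- value was above every N4bp1+/+ value, and all 6 lay in the lower part of the table, at rank 90 to 120 of 124 by level.
The ratio was 14.8-fold without stimulus, 6.08-fold after R848 and 6.38-fold after LPS, number 2 of 123, 4 of 124 and 3 of 124 counted from the highest. The smallest of its 3 ratios, 6.08-fold, was number 3 among the 123 genes by that value. The difference in FPKM was 0.984 without stimulus, 1.29 after R848 and 1.26 after LPS.
These ratios rest on denominators far below 1 FPKM, for which no read count is available. With 1 FPKM added to both values the log2 ratios were 0.94, 1.02 and 1.01 in place of 3.89, 2.61 and 2.67. *Sox9* stayed past the fold, and the larger ratio without stimulus than after either stimulus did not remain.
Of the other 7 genes taken as markers of stromal cells (*Cyp7b1*, *Vcam1*, *Serpine2*, *Cav1*, *Penk*, *F3*, *Nrg1*), 5 were higher past the fold in N4bp1-/- cells without stimulus, against 47.2% of all listed genes. After R848 3 of the 7 were higher, against 33.9%. After LPS 1 was higher, against 21%, and 1 was lower, against 16.1%. Their summed FPKM was 9.10 in N4bp1+/+ and 25.9 in N4bp1-/- cells without stimulus, 203.7 and 229.0 after R848, and 386.4 and 284.7 after LPS. Most of each sum was *Cav1*, at 5.59 and 19.4, 150.7 and 160.45, and 279.6 and 182.0 FPKM in the same order. No marker was at 0 in any group. All 7 were higher past the fold after either stimulus than without it in both genotypes. Their sums therefore do not measure stromal cell content alone. Their part in the *Sox9* result was not tested.

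Across treatments, 4 of the 5 loci lay below the median listed gene in the ratio of R848 to the unstimulated level, with *Cebpd* the exception, and all 5 did so in that of LPS. This held in both genotypes. The ratios of R848 and of LPS to the unstimulated level share the unstimulated mean and are given side by side. In N4bp1+/+ cells after R848, all 5 loci were higher past the fold than without stimulus, as were 100% of the listed genes. After LPS all 5 were higher as well, against 96%. Without N4bp1, 4 of 5 were higher after R848, against 97.6%, and 4 of 5 after LPS, against 95.1%. The exception in both was *Sox9*. In N4bp1+/+ cells given R848 no listed gene fell short, so that count does not set the 5 loci apart. No source used here says whether stimulated values of these data entered the choice of the list. If they did, the listed genes are not a neutral background for ratios that rest on the unstimulated N4bp1+/+ mean.
*Spi1* exceeded its unstimulated level 2.33-fold with R848 and 1.82-fold with LPS in N4bp1+/+ cells, and 2.17-fold and 1.79-fold in N4bp1-/- cells. These are among the smallest ratios of the table: number 6 and 8 of 124 from the lowest in N4bp1+/+ cells and 11 and 13 of 123 in N4bp1-/- cells. Its level was already among the highest before stimulation.
*Tfec* exceeded its unstimulated level 7.35-fold with R848 and 9.37-fold with LPS in N4bp1+/+ cells, and 6.58-fold and 6.52-fold in N4bp1-/- cells. In each case it lay below the median listed gene, whose log2 ratio was 3.16 and 3.73 in N4bp1+/+ and 2.86 and 3.16 in N4bp1-/- cells, beside 2.88, 3.23, 2.72 and 2.71 for *Tfec*.
*Cebpd* differed most between the stimuli. It was 9.74-fold higher after R848 but 3.80-fold higher after LPS in N4bp1+/+ cells, and 7.65-fold and 4.26-fold higher in N4bp1-/- cells. The log2 ratio of LPS to R848 was thus −1.36 in N4bp1+/+ and −0.85 in N4bp1-/- cells. Between LPS and R848, 12.1% of the listed genes were lower past the fold in N4bp1+/+ and 19.4% in N4bp1-/- cells. *Cebpd* was the only 1 of the 5 loci past it in either direction, while 37.9% and 25.8% of the listed genes were higher.
The *Hif1a* locus was 3.32-fold and 3.53-fold higher after R848 and LPS in N4bp1+/+ cells, and 3.33-fold and 3.07-fold higher in N4bp1-/- cells. The 4 ratios lie close together. *Sox9* was 3.57-fold and 3.29-fold higher in N4bp1+/+ cells and 1.47-fold and 1.42-fold higher in N4bp1-/- cells, where its unstimulated level was already above both stimulated N4bp1+/+ levels.

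**Figure D3:**
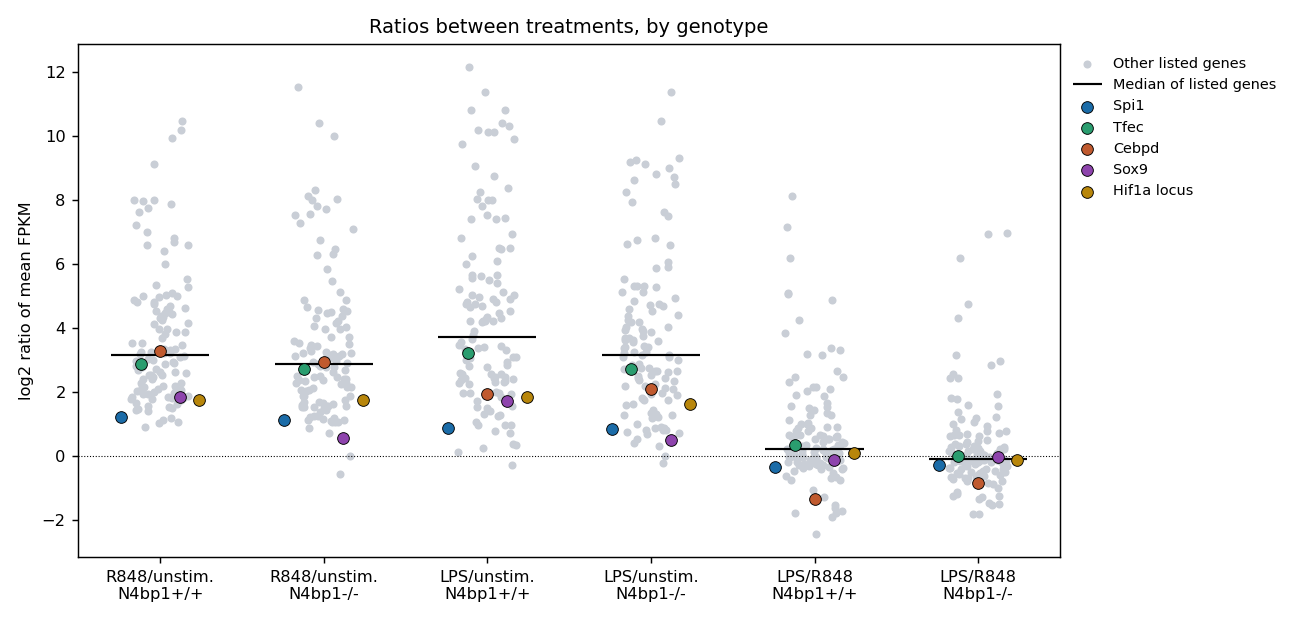
Points give the log2 ratio of mean FPKM between 2 treatments within 1 genotype, with the 5 loci in color, the other listed genes in grey and the median of all listed genes as a bar. *Spi1* lies at the low end of the ratios to the unstimulated level, and *Cebpd* lies at −1.36 and −0.85 in the ratios of LPS to R848.

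The order of the 5 loci by level was *Spi1*, the *Hif1a* locus, *Tfec*, *Cebpd* and *Sox9* in all 6 groups. FPKM is per length, so levels can be set beside each other. The *Cebpd* row also spans *Spidr* and the *Hif1a* row spans *Snapc1*, so their values may not be those of the named gene alone. With no spread it also cannot be said which neighbours in that order differ beyond it. The closest neighbours were *Tfec* and *Cebpd* in N4bp1-/- cells, at 4.89 and 3.59 FPKM without stimulus and at 32.1 and 27.5 FPKM after R848.

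For each locus the listed genes with the most similar pattern were taken by Pearson's r of log2 FPKM over the 6 group means, among 122 genes that were above 0 in all groups. The 6 means share libraries and scaling within a treatment, and most listed genes have a high r with each other, so the values only describe likeness. The median r with all compared genes was 0.89 for *Spi1*, 0.92 for *Tfec*, 0.86 for *Cebpd* and 0.94 for the *Hif1a* locus, but 0.39 for *Sox9*.
*Sox9* was nearest to *Ccr7*, the receptor that guides dendritic cells to lymph nodes (r = 0.98), to *Fn1*, which encodes fibronectin (r = 0.97), and to *Cyp7b1*, an oxysterol hydroxylase (r = 0.93). *Ccr7* was at 0.0452 and 0.942 FPKM without stimulus, 0.366 and 2.71 after R848, and 0.215 and 1.73 after LPS, N4bp1+/+ first, so it shares both the low level and the direction of *Sox9*. *Fn1* had the same direction at a far higher level, at 84.8 and 339.8 FPKM without stimulus.
*Tfec* was nearest to *Cd83*, a maturation marker of dendritic cells (r = 0.99), to *Gadd45b*, a stress response gene (r = 0.99), and to *Cd44*, a hyaluronan receptor (r = 0.99). *Cd83* was at 459.6 and 308.9 FPKM after R848 and at 487.4 and 290.7 FPKM after LPS, N4bp1+/+ first. All 3 were below 1 in the ratio of genotypes under each treatment, as *Tfec* was.
*Spi1* was nearest to *Prkcd*, which encodes protein kinase C delta (r = 0.99), and to *Orm2* and *Orm3*, which encode the acute phase protein orosomucoid (r = 0.98 for both). *Orm2* and *Orm3* are close copies of each other whose reads may be shared between them, and *Orm3* was at 0.498 FPKM or less in every group.
*Cebpd* was nearest to *Serpine2*, a protease inhibitor (r = 0.98), to the joined locus of *Ahctf1* and *Kif28* (r = 0.97) and to *Abca1*, a cholesterol exporter (r = 0.97), each of which was highest after R848 and lower after LPS in both genotypes. The *Hif1a* locus was nearest to *Cd38*, an NAD hydrolase (r = 1.00), *Inhba*, which encodes a subunit of activin (r = 0.99), and *Ebi3*, a subunit of IL-27 (r = 0.99).

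**Figure D4:**
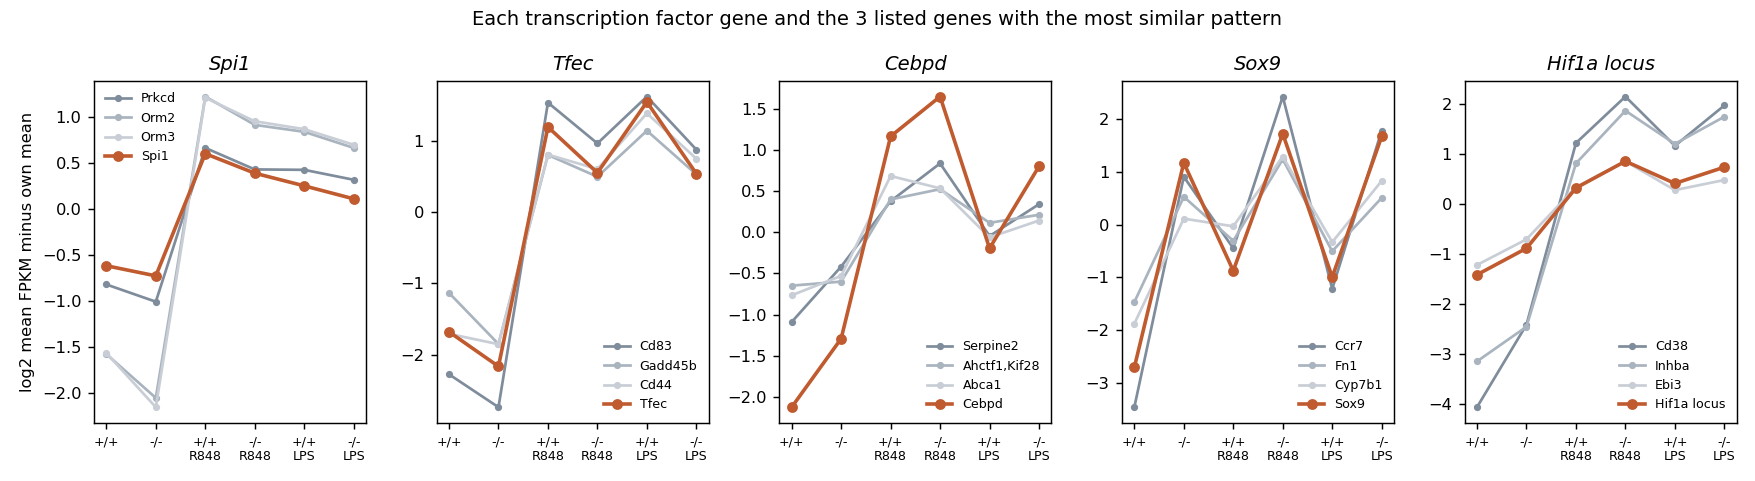
Lines give log2 mean FPKM minus the gene's own mean over the 6 groups, on separate axes for each of the 5 loci (orange) and the 3 listed genes with the highest Pearson's r (grey); lines connect groups that have no order. *Sox9* and *Ccr7* alternate with genotype under all 3 treatments, whereas *Tfec* and *Cd83* separate mainly the stimulated from the unstimulated groups.

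The other 11 genes for transcription factors and their co-factors on the authors' list were mostly within the fold between genotypes. These are the NF-κB subunits *Nfkb1*, *Nfkb2*, *Rel* and *Relb*, their co-factors *Bcl3* and *Nfkbiz*, and *Irf1*, *Junb*, *Myc*, *Stat5a* and *Prdm1*. Of the 11, 1 was higher past the fold in N4bp1-/- cells without stimulus and 1 after R848, in both cases *Nfkbiz*, and 1 was lower after LPS, *Stat5a*, which encodes a mediator of cytokine receptor signals. *Nfkbiz* encodes IκBζ, an NF-κB co-activator of secondary response genes, and had log2 ratios of 0.76, 0.62 and −0.01 in the order no stimulus, R848 and LPS. *Stat5a* had log2 ratios of 0.01, −0.23 and −0.71. Of all listed genes, 47.2% were higher without stimulus, 33.9% after R848, and 16.1% lower after LPS. The median log2 ratio of these 11 was 0.35, −0.03 and −0.10, beside 0.53, 0.28 and −0.09 for all listed genes. *Sox9* was thus higher and *Tfec* lower than all 11 under each treatment, and *Cebpd* was higher than all 11 without stimulus and after LPS.
Genes whose promoters C/EBP proteins are known to bind in the acute phase response were described beside *Cebpd*. Of 11 such genes, 8 were higher past the fold in N4bp1-/- cells and 1 was lower without stimulus, 8 and 1 after R848, and 6 and 1 after LPS. Of all listed genes, 47.2%, 33.9% and 21% were higher and 3.25%, 3.23% and 16.1% lower. The median log2 ratio of the 11 was 1.36, 1.27 and 0.76, beside 0.53, 0.28 and −0.09 for all listed genes. The 3 with the highest mean level were *Ptgs2*, which encodes COX-2 (log2 ratios 1.55, 1.37 and 0.55), the cytokine gene *Il6* (1.39, 1.38 and −0.31) and the complement gene *C3* (2.03, 1.22 and 1.34). The lower one was *Orm3* without stimulus, and *Hamp*, which encodes the iron hormone hepcidin, after both stimuli. Without stimulus most of the 8 higher genes were below 1 FPKM in both genotypes, as was *Orm3*. *Il6*, for example, was at 0.126 and 0.331 FPKM, N4bp1+/+ first. No read count is available at these levels. All 11 are on the authors' list, which was drawn up from NF-κB-dependent genes. These 11, like the other gene lists here, were chosen with earlier results of these data known. Their counts beside those of all listed genes are thus a description only.
Of 4 known HIF-1 targets, 3 were higher past the fold in N4bp1-/- cells without stimulus, 2 after R848 and 1 after LPS, where 2 were lower. Of all listed genes, 47.2%, 33.9% and 21% were higher, and 16.1% were lower after LPS. *Cdkn1a*, a cell cycle inhibitor, had log2 ratios of 0.10, −0.53 and −0.78, and *Pdgfb*, a growth factor gene, had 1.02, 0.98 and 1.90. The *Hif1a* locus was higher in N4bp1-/- cells under each treatment, and its 4 targets did not share a direction after LPS.
Markers of other cells that such a preparation can hold also differed between the genotypes. The 3 neutrophil markers (*Trem1*, *Lcn2*, *Mmp9*) had a summed FPKM of 3.58 and 6.11 without stimulus, 36.6 and 75.5 after R848, and 14.7 and 35.9 after LPS, N4bp1+/+ first, with 2, 2 and 3 of them higher past the fold, against 47.2%, 33.9% and 21% of all listed genes. *Lcn2*, which is also among the acute phase genes counted above, made up most of the stimulated sums. Without stimulus it was lower in N4bp1-/- cells, at 2.26 and 1.61 FPKM, N4bp1+/+ first. Of the 4 dendritic cell markers (*Ccr7*, *Ccl17*, *Ccl22*, *Cd83*), 3 were higher past the fold without stimulus, 1 after R848 and 1 after LPS, where 3 were lower. Of all listed genes, 47.2%, 33.9% and 21% were higher in that order, and 16.1% were lower after LPS. Among the 4 markers, *Ccr7* was the one that was higher under all 3 treatments. The sum of the 4 was 32.9 and 25.8 FPKM without stimulus, 472.8 and 321.8 after R848, and 536.2 and 307.7 after LPS, most of it *Cd83*. Without *Cd83* the sums were 0.295 and 2.11, 13.3 and 12.9, and 48.8 and 17.0 FPKM. The B cell marker *Fcer2a* was at 0.303 FPKM or less in all groups, with log2 ratios of 0.45, 1.43 and 1.94. The neutrophil and dendritic cell markers were all higher past the fold after either stimulus than without it in both genotypes. Their sums therefore do not measure cell content alone. None of the markers of these 3 cell types was at 0, and their part in the results of the 5 loci was not tested.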

How the data were processed

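RNA of peritoneal macrophages was measured in 12 libraries, 2 mice in each of 6 groups formed from the labels' genotype and treatment. Per the submitters' processing notes, Cufflinks 2.1.1, TopHat2 2.0.10 and CASAVA 1.8.2 were used, with build mm10. The authors deposited FPKM for 124 genes, each a mean over the 2 mice of a group. The authors' own fold changes, test statistics, p-values and q-values, also in the tables, were not used. Since neither read counts nor single libraries have values here, the depth is unknown and no error or test was computed. No source used here gives the annotation or the use of strand in counting.

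Ratios are those of mean FPKM with no pseudocount and no filter, so a gene at 0 has none. Row starts were raised by 1 to count from 1: 99 of 124 then match a gene start of GENCODE M21 (GRCm38). The scripts were tested on simulated data with known ratios and planted motifs. Python 3.11.15, numpy 2.4.6, pandas 2.3.3 and matplotlib 3.10.9 were used.

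The genes named are the 5 loci, the 3 nearest patterns of each, listed transcription factor genes past 1.5-fold, and up to 3 members of other lists by level. The transcription factor and cell marker lists are also spelled out by name. *Tlr2*, *Hamp* and the sums without *Spi1*, *Sox9* or *Cd83* were chosen with their values in view. So were the levels given for *Cav1*, *Lcn2* and *Il6* and the *Cd83* ratio set beside *Tfec*. The values of 1 listed gene are not reported here, and it is kept in the counts and medians. The loci, lists and motifs were chosen with earlier results of these data known. Alternatives were pseudocounts, centring on the median listed gene, a minimum of 1 FPKM, a fold of 2, leaving out the 4 joined loci, and Spearman's rho.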

Additional observations from a re-analysis of the deposited data

How the results depend on the processing

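The ratios of genotypes kept their direction for all 5 loci under pseudocounts of 0.1 and 1 FPKM and under centring on the median listed gene, although the centred *Hif1a* locus without stimulus lay at 0.0015. With a pseudocount the log2 ratio of *Sox9* between genotypes was 2.75 (0.1 FPKM, no stimulus) and 0.94, 1.02 and 1.01 (1 FPKM; no stimulus, R848, LPS). Its stimulated to unstimulated log2 ratio in N4bp1+/+ cells was 1.05 and 0.96 with 0.1 FPKM, and 0.23 and 0.20 with 1 FPKM (R848, LPS). The difference of its genotype ratios from no stimulus was −0.54 and −0.50 with 0.1 FPKM, and turned to 0.083 and 0.075 with 1 FPKM.

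Centred on the median listed gene, log2 ratios to the unstimulated level are relative to that gene. For R848 in N4bp1+/+ cells they were −1.94 (*Spi1*), −0.28 (*Tfec*), 0.12 (*Cebpd*), −1.32 (*Sox9*) and −1.43 (*Hif1a* locus), and in N4bp1-/- cells −1.75, −0.14, 0.072, −2.31 and −1.13. For LPS they were, in N4bp1+/+ cells, −2.86, −0.50, −1.80, −2.01 and −1.90, and in N4bp1-/- cells −2.32, −0.45, −1.07, −2.66 and −1.54. The differences of genotype ratios, LPS minus no stimulus, became 0.59, 0.10, 0.78, −0.60 and 0.42. Centring takes off the median of each comparison: 3.16 and 2.86 for R848 and 3.73 and 3.16 for LPS over no stimulus (N4bp1+/+ first), and for the genotypes 0.53 without stimulus and −0.09 after LPS.

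Without stimulus, 35 listed genes were higher past the fold with 1 FPKM added and 37 at a minimum of 1 FPKM. Lower ones numbered 1 with either pseudocount or the minimum, 27 centred and 0 at a fold of 2. After R848 the lower count was 12 centred and 2 at a fold of 2, and after LPS 13 and 6. Centred ratios to no stimulus gave 48 higher and 45 lower genes for R848 in N4bp1+/+ cells, 42 and 44 in N4bp1-/- cells, and 53 and 52, then 48 and 47, for LPS. For LPS over R848, 9 were lower in N4bp1+/+ cells with 1 FPKM added, and 21 were higher and 12 lower in N4bp1-/- cells at a fold of 2. By Spearman's rho the *Hif1a* locus kept 1 of its 3 nearest genes.

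With no spread between mice, values were compared by a tolerance of 1.5-fold. Leaving out a mouse was not run, since each value is a pooled mean. No paired analysis was possible because only pooled means per group are used and no test was made.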
